A study of Mus musculus with 27 samples.

Results

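The 4 libraries described here are from 2 mammary tumour cell lines of the genotype ΔHD1/fl, each sequenced without cytokine and after TGFβ, and they are 4 of the 27 RNA-seq libraries of the series. They were chosen by their labels alone, as the untreated and TGFβ-treated libraries of this genotype, and each TGFβ library was set against the untreated library of the same line. Both lines came from tumours of the thoracic mammary gland in MMTV-PyMT mice on the FVB/N background, in which the mouse mammary tumour virus promoter drives the polyoma middle T oncogene in the mammary epithelium. They carry knock-in alleles of Bcl9 and Bcl9L that lack homology domain 1 (HD1), the part that binds Pygopus, together with floxed alleles that had not been recombined and so still make the full proteins. TGFβ was given at 2 ng/ml for 4 days with the cytokine renewed every second day, and the untreated cells (0 ng/ml) were kept in growth medium for the same time and lysed together with the treated cells. A replicate number stands for 1 line from 1 mouse, so n = 2 lines, and each line and treatment has 1 library. The comparison groups ΔHD1/- (4 libraries, floxed alleles deleted with an adenovirus coding for Cre and GFP and sorted cells) and ΔHD2/fl (4 libraries, lacking instead the β-catenin-binding domain HD2) also carry the PyMT transgene and have 2 lines each. The remaining libraries, which share in the estimate of the spread, are 9 of the genotype ΔHD2/- (3 lines, recombined as ΔHD1/-, without cytokine, with TGFβ and with Wnt3a) and 6 of the other 3 genotypes with Wnt3a, which was given at 100 ng/ml for 3 days. Whether a ΔHD1/- line was made from the ΔHD1/fl line of the same number is not given in the sources used here, and the lines were compared as separate lines. The deletion of HD1 lies inside the transcripts and cannot be checked from counts per gene.

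TGFβ is a secreted cytokine that binds a receptor pair of serine/threonine kinases, which phosphorylate Smad2 and Smad3. These enter the nucleus with Smad4 and change transcription together with AP-1 and other factors. In mammary epithelial cells TGFβ is known to arrest the cell cycle and to start an epithelial-mesenchymal transition (EMT), in which cells lose junctions, make fibronectin and other matrix, and become motile. Bcl9 and Bcl9L are adaptors that couple β-catenin to Pygopus in the transcription of Wnt target genes.

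The 4 libraries held 21.86 to 28.17 M reads (21.86 to 33.69 M reads over all 27), recovered from the deposited CPM (read counts scaled to a common library total), and 3 reads corresponded to 0.107 to 0.137 CPM. Levels are given in CPM, which is not divided by gene length, so levels are compared between libraries and not between genes. Where a line has a pair of levels, the first is untreated and the second with TGFβ. A change is the difference of log2(CPM + 1) between the TGFβ and the untreated library of a line, which understates the change of genes near 0 CPM. The mean change is the average over both lines, with a standard error (SE) from limma fitted to all 27 libraries with the cell line as a block. A gene is said to have risen or fallen only where this mean was at least 1 in size and its p, adjusted by the Benjamini-Hochberg method over the 13270 genes tested, did not exceed 0.05.

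The lines differed before TGFβ was added, and one of them went against its description as an epithelial tumour line. In line 1, Cdh1 (E-cadherin) was at 606 CPM, Epcam at 390 CPM, the simple keratin Krt8 at 1256 CPM and the epithelial splicing factor Esrp1 at 310 CPM. In line 2, Cdh1 was at 0.52 CPM, Epcam at 0.07 CPM, Krt8 at 0.34 CPM and Esrp1 at 0 CPM. Line 2 instead held Vim (vimentin) at 4188 CPM, Zeb1 at 205 CPM, Col3a1 at 608 CPM, Pdgfra at 416 CPM and Prrx1 at 79.3 CPM, against 198, 11.1, 0, 4.12 and 0 CPM in line 1. The 10 epithelial markers summed to 7012 CPM in line 1 and 358 CPM in line 2 without cytokine, and to 2509 and 39.8 CPM with TGFβ. In line 2, Krt14, a basal keratin, gave 356 CPM of the sum without and 31.7 CPM of the sum with TGFβ. The 8 myoepithelial markers, Krt14 among them, summed to 3524 and 590 CPM without cytokine in lines 1 and 2, and to 591 and 103 CPM with TGFβ, and Krt14 gave 3491 and 567 CPM of the sums in line 1. The 10 fibroblast markers summed to 60.8 and 2677 CPM without cytokine, and to 153 and 1515 CPM with TGFβ. Of those fibroblast markers, Thy1 had no read in any of the 4 libraries and Lum and Fap were at or under 0.04 CPM. Some basal keratinocyte genes were above 100 CPM in untreated line 2, with Krt14 at 356 CPM, Krt6a at 139 CPM and the basal factor Trp63 at 180 CPM. Others were low, with Krt5 at 1.04 CPM, Krt15 at 0.60 CPM, Krt17 at 0.34 CPM, Krt6b at 0.11 CPM and the desmosomal cadherin Dsg3 at 0.48 CPM. Endothelial markers summed to at most 5.47 CPM and haematopoietic markers to at most 21 CPM, and adipocyte markers reached 63.7 CPM in the untreated library of line 2 through Plin4. Bulk RNA does not tell a lower level per cell from fewer cells of a type. Because of this contrast the main results are given for each line beside the mean.

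**Figure D1:**
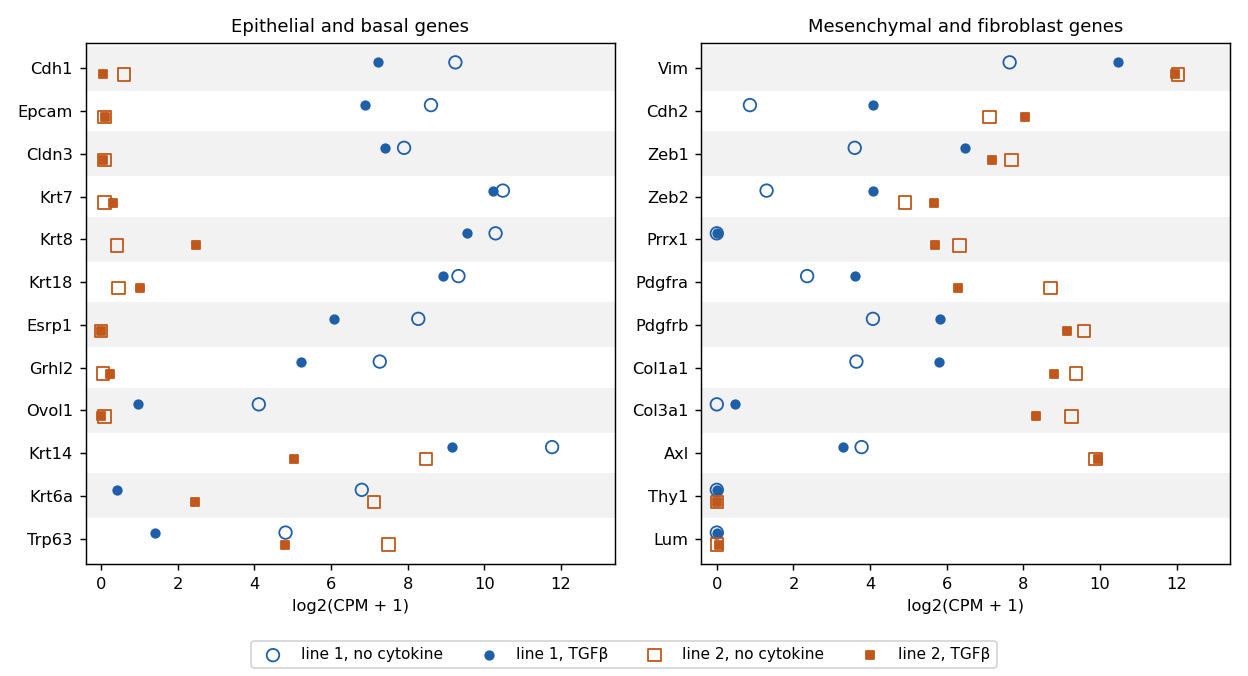
Levels of epithelial, basal, mesenchymal and fibroblast genes as log2(CPM + 1) in the 4 ΔHD1/fl libraries, line 1 as circles and line 2 as squares, open without cytokine and filled with TGFβ. Cdh1, Epcam and Krt7 were high in both libraries of line 1 and near 0 in line 2, whereas Krt14 and Krt6a were present untreated in both lines and lower with TGFβ in both.

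With TGFβ, 719 of 13270 genes changed over both lines, 311 higher and 408 lower, which is 5.42% of the genes tested (2.34% higher and 3.07% lower). Each of the 719 moved in the same direction in both lines, and 428 of them moved by at least 1 in both. The call itself favours a shared direction, since it needs a mean change that is large against its error. The split between the directions depended on the scaling, since with median-of-ratios size factors 363 genes rose and 276 fell. That scaling moved the median change of all genes from -0.11 to -0.003, a shift of 0.11, so a change near 1 should be read against it. Fitted to the recovered reads with edgeR's quasi-likelihood test, 775 genes (5.84%) were called, of which 515 were among the 719. Without line 1 the count was 325 genes and without line 2 it was 1482 genes. It was 480 without line 3 of ΔHD2/-, an alternative chosen after the data were seen, and all 480 were among the 719. Ignoring which libraries shared a line (no block) left 28 genes, all of them among the 719. With the 4 libraries alone, which leave 1 residual degree of freedom, limma called 0 genes, with 1224 genes at an unadjusted p under 0.05.

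Counted without a test, 282 genes (2.13%) were higher by at least 1 in both lines and 349 (2.63%) were lower by at least 1 in both. Line 1 moved more than line 2, with 2661 genes changed by at least 1 against 1317. Genes that were lower by at least 1 in line 1 and moved by less than 0.5 in line 2 were the largest set, with 921 genes (6.94%), and 406 genes (3.06%) were higher in the same way. For line 2 with line 1 under 0.5 there were 279 lower genes (2.1%) and 99 higher genes (0.746%). Opposite changes of at least 1 were found for 38 genes that were higher in line 1 and lower in line 2 (0.286%), and for 26 genes with the reverse pattern (0.196%). The SD of the changes over genes was 1.03 in line 1 and 0.71 in line 2, and across genes, which are not independent replicates, the changes of the lines had a correlation of 0.44. Between the lines, the correlation of levels over genes was 0.861 without cytokine and 0.901 with TGFβ, and the number of genes that differed by at least 2 on the log2 scale was 1186 without cytokine and 958 with TGFβ.

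**Figure D2:**
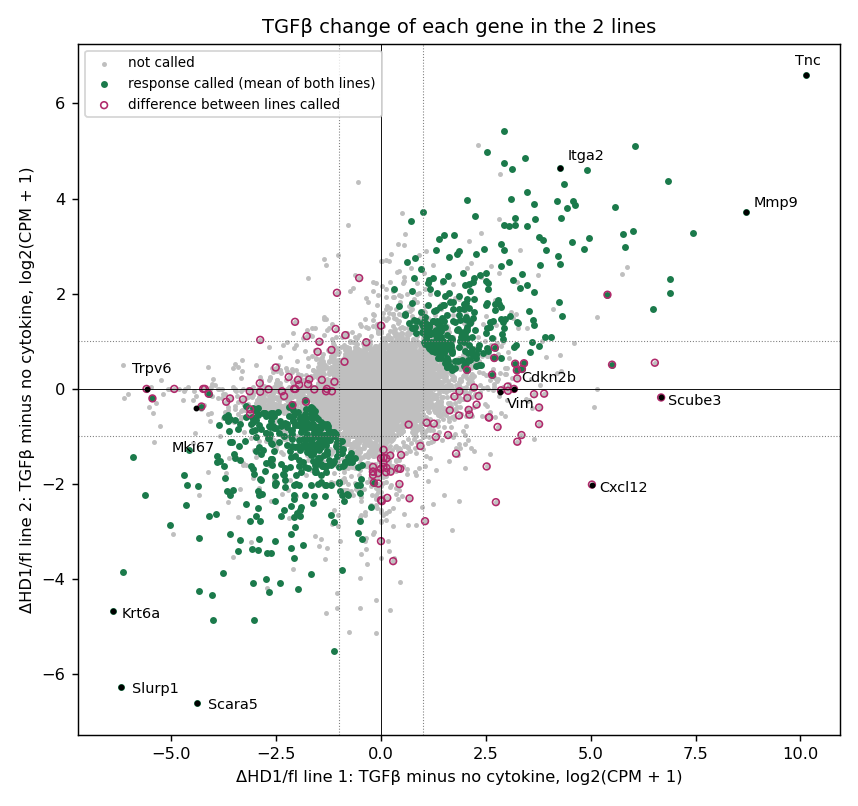
TGFβ change of each of the 13270 genes tested, in log2(CPM + 1), with line 1 on the horizontal and line 2 on the vertical axis. Green points are the 719 genes called for the mean of both lines, which lie in the upper right and lower left, and open circles are the 122 genes called for a difference between the lines, which spread along the axes. Labelled points are black, and dotted lines mark a change of 1 in either direction.

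The genes that rose most in both lines included genes of matrix, matrix-cleaving enzymes and cell-matrix contacts beside others. Tnc (tenascin C, a matrix glycoprotein of wounds and tumour stroma) went from 4.89 to 6599 CPM in line 1 and from 18.8 to 1900 CPM in line 2, a mean change of 8.36 ± 1.66 (SE, adjusted p = 0.010, limma). Has2, which makes hyaluronan, went from 10.5 to 767 CPM in line 1 and from 11.7 to 437 CPM in line 2. Its mean change of 5.59 ± 0.47 (SE) had an adjusted p of 8e-05. In both genes the TGFβ libraries lay far above both untreated libraries.

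Ccn4, a matricellular protein with a higher untreated level in line 2, stood at 1.10 and 248 CPM in line 1 and 82.7 and 417 CPM in line 2. Among the proteases, Mmp9 (a gelatinase) was at 0.55 and 647 CPM in line 1, against 0.26 and 15.6 CPM in line 2. Mmp10 (a stromelysin) was at 0.27 and 145 CPM in line 1 and 0.34 and 26.8 CPM in line 2. Both were near absent without cytokine in both lines and reached higher levels with TGFβ in line 1.

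Adamts4, which cleaves aggrecan and other proteoglycans, rose from 4.85 to 375 CPM in line 1 and from 14.5 to 153 CPM in line 2. Itga2, the α2 chain of a collagen receptor, was at 1.74 and 51.7 CPM in line 1 and 0.19 and 28.7 CPM in line 2. Odaph, a secreted phosphoprotein known from enamel, was at 1.51 and 75.2 CPM in line 1, against 0.67 and 39.5 CPM in line 2, with a mean change of 4.76. For Itga2 and Odaph the changes of the lines were close, whereas Tns1 (tensin 1 of focal adhesions) changed by 7.45 in line 1 and 3.27 in line 2. Ccbe1, a secreted factor of lymphatic growth, changed by 5.58 and 3.82, and Ctla2a, a cysteine protease inhibitor, by 6.88 and 2.01. Ctla2a has a near copy, Ctla2b, so reads may be split between them. For none of these 11 genes was the difference between the lines called (adjusted p of 0.09 for Ccn4 and 0.20 or more for the others). All 11 were also called by edgeR, and without line 1 only Has2, Odaph, Ccbe1 and Itga2 of them were called. Ctla2a was not called without line 3 of ΔHD2/- (adjusted p = 0.052).

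The promoters of 4 of these genes are shown because the genes rose together in both lines and the windows hold letters that Smad or AP-1 factors are known to bind. Each is 250 bases before the transcript start in RefSeq on GRCm38.p6, on the strand of the gene, and the capitals mark CAGACA (or its reverse complement) and TGANTCA. GTCTAGAC and CAGGTG were also searched on both strands. The motifs do not overlap each other in these windows, and Itga2 holds CAGACA alone. The windows of Tnc and Tns1 are not shown, and the bases before the start of Tns1 hold none of the motifs.
Mmp10: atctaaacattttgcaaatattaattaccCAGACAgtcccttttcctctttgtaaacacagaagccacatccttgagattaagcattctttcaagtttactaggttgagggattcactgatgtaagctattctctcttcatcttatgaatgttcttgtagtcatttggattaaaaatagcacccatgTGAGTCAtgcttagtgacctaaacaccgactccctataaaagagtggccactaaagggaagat
Odaph: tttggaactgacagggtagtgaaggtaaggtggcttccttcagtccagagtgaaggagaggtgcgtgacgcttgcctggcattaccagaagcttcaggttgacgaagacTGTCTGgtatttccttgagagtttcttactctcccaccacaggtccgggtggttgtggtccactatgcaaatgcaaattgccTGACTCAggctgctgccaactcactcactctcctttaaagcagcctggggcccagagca
Itga2: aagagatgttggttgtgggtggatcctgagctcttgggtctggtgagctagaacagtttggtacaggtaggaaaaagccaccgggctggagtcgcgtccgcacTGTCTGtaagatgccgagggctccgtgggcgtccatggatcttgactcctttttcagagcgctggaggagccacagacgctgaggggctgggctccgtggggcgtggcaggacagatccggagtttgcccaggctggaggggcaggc
Ctla2a: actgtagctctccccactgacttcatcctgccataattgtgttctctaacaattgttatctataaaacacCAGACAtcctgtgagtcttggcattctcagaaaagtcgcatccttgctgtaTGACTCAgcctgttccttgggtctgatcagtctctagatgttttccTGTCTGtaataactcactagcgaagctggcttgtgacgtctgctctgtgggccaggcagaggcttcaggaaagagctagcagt
The Mmp10 window was chr9:7502092-7502341 on the plus strand and that of Odaph chr5:91987223-91987472 on the plus strand. The Itga2 window was chr13:114932101-114932350 on the minus strand and that of Ctla2a chr13:60936626-60936875 on the minus strand. TGANTCA began 63 bases before the start in Mmp10, 59 in Odaph and 129 in Ctla2a. In the full windows of 300 bases, which run 50 bases past the start, CAGACA was found for 5 of the 6 rising genes that have a window in the table and for 1 of the 6 falling genes that have one, and for 21% of all 32851 windows. TGANTCA was found for 3 of 6 and 2 of 6, and for 7.81% of all windows. CAGGTG was found for 1 of 6 in each set and for 20.2% of all windows, and GTCTAGAC for 0 of 6 in each and for 0.213%. A gene with several windows was counted once if any held the motif, whereas the shares are per window. The counts and shares are therefore unlike measures, and no enrichment was tested. A match of letters is a description and not a binding site.

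**Figure D3:**
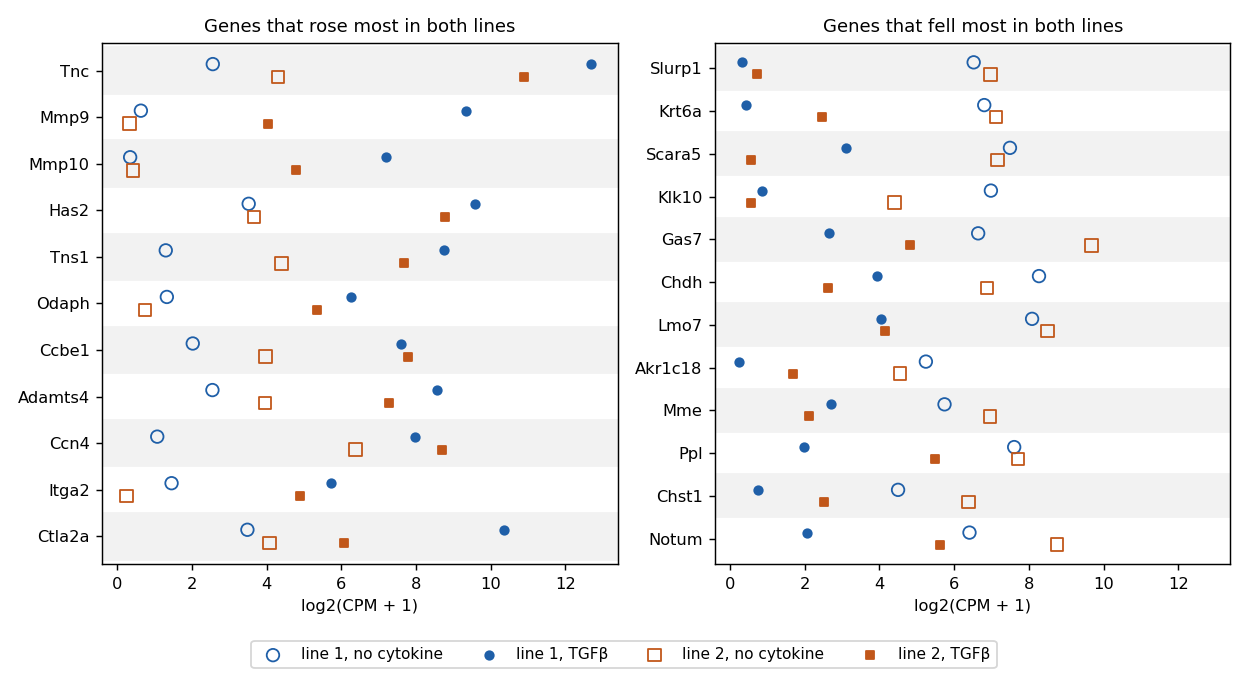
Levels as log2(CPM + 1) of 11 of the genes that rose most (left) and the 12 that fell most (right) among those changed by at least 1 in both lines, line 1 as circles and line 2 as squares, open without cytokine and filled with TGFβ. In each line the filled symbol of every gene on the left lies to the right of the open one, and of every gene on the right to the left of it.

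The genes that fell most in both lines had varied roles. Slurp1, a secreted Ly6 protein of keratinocytes, fell from 90.9 to 0.25 CPM in line 1 and from 125 to 0.64 CPM in line 2, a mean change of -6.23 ± 1.58 (SE, adjusted p = 0.028, limma). Krt6a, a keratin of activated keratinocytes, fell from 111 to 0.34 CPM and from 139 to 4.51 CPM in lines 1 and 2. It was called by limma (adjusted p = 0.027) and not by edgeR, and it has a near copy, Krt6b. Ppl (periplakin of desmosomes) fell from 194 to 2.94 CPM in line 1 and from 209 to 43.9 CPM in line 2.

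Scara5, a receptor for ferritin, was at 179 and 7.65 CPM in line 1 and 141 and 0.46 CPM in line 2, with a mean change of -5.49 ± 0.66 (SE, adjusted p = 0.00062). Klk10, a secreted kallikrein, was at 126 and 0.80 CPM in line 1 and 20.1 and 0.46 CPM in line 2. Notum, an enzyme that inactivates Wnt proteins, was at 84.1 and 3.20 CPM in line 1, against 432 and 48.1 CPM in line 2. In all of these the TGFβ library lay below the untreated library of the same line, as the choice of genes required. For Notum the treated level of line 2 was below the untreated level of line 1.

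Gas7 (an actin-binding protein of outgrowing neurites) changed by -4.01 and -4.85, Chdh (choline dehydrogenase of mitochondria) by -4.35 and -4.25 and Lmo7 (a LIM protein of junctions) by -4.04 and -4.34 in lines 1 and 2. Mme (the membrane peptidase neprilysin) changed by -3.03 and -4.85, and Akr1c18, which inactivates progesterone, by -5.02 and -2.87. Chst1, a sulfotransferase for keratan sulfate, was at 21.6 and 0.67 CPM in line 1 and 82.4 and 4.72 CPM in line 2, with a mean change of -3.81 ± 0.37 (SE, adjusted p = 0.00021). Of these 12 genes, 9 were also called by edgeR, and without line 1 only Scara5, Akr1c18, Chst1 and Notum were called. Ppl was not called without line 3 of ΔHD2/- (adjusted p = 0.062).

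The shares of all tested genes that rose (2.34%) and fell (3.07%), and the medians over all genes of -0.14 in line 1 and -0.05 in line 2, are the background for the gene lists that follow. In the TGFβ pathway itself, the feedback inhibitors and target genes leaned upward. Of 25 tested, 9 rose and 0 fell, with a median change of 1.01 against -0.11 over all genes, and the medians were 1.00 in line 1 and 0.64 in line 2. Among them were Ccn2 and Ccn1 (matricellular proteins), Hmga2 (a chromatin architectural protein), Cdkn1a (the CDK inhibitor p21), Bhlhe40 (a repressor), Pmepa1 and Ldlrad4 (inhibitors of Smad signalling) and Tgif1 (a Smad corepressor). Ccn2 was at 231 and 2017 CPM in line 1 and 26.1 and 667 CPM in line 2. Bhlhe40 was at 128 and 729 CPM in line 1, against 48.9 and 112 CPM in line 2. Pmepa1 went from 556 to 1237 CPM and from 120 to 585 CPM in lines 1 and 2. Smad7, the inhibitory Smad, had a mean change of 0.95 ± 0.22 (SE, adjusted p = 0.019), below the limit on size, with 119 and 319 CPM in line 1 and 78.7 and 112 CPM in line 2.

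Of 20 ligands, receptors, Smads and latency proteins, 3 rose (2.34% of all genes) and 0 fell. Lrrc32, which holds latent TGFβ at the cell surface, was at 0.14 and 9.42 CPM in line 1 and 0.30 and 14.8 CPM in line 2. Acvrl1, a type I receptor, had no read in either untreated library and was at 5.89 and 2.66 CPM with TGFβ. Ltbp1, which binds latent TGFβ to the matrix, rose from 88.5 to 251.2 CPM and from 322 to 600 CPM in lines 1 and 2. The Smads that carry the signal were not called, with mean changes of 0.22 for Smad2, 0.32 for Smad3 and 0.20 for Smad4. Of 18 Id and BMP pathway genes, Id1, an inhibitor of helix-loop-helix factors, fell (129 and 42.7 CPM in line 1, 107 and 35.0 CPM in line 2), and Bmp1, a protease that processes procollagen, rose (153 and 868 CPM, 123 and 419 CPM).

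Of 49 extracellular matrix genes, 5 rose and 0 fell: Tnc, Ccn4, Col7a1 (anchoring fibrils), Plod2 (collagen lysyl hydroxylase) and Col18a1 (basement membrane). Col7a1 was at 2.20 and 33.6 CPM in line 1 and 9.81 and 313 CPM in line 2. The median of the list was 0.69 in line 1 and -0.35 in line 2, and Col1a1, Col1a2 and Col3a1 were among those with different signs, while the values of Col5a1 (2.69 and 0.65) and Col5a2 (1.58 and 1.33) were positive in both lines. None of these 5 collagens was called. Col1a1 was at 11.5 and 54.7 CPM in line 1, against 659 and 442 CPM in line 2, and Col12a1 at 9.24 and 345 CPM in line 1 and 966 and 745 CPM in line 2. The treated level of line 1 stayed below the untreated level of line 2 in both genes. Fn1 (fibronectin) was at 6503 and 46938 CPM in line 1 and 13600 and 25484 CPM in line 2. Its mean change of 1.88 ± 0.62 (SE) missed the threshold (adjusted p = 0.071), and it took 4.69% of the reads of the TGFβ library of line 1 against 0.65% untreated.

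Among 27 matrix proteases and their inhibitors, 6 rose and 1 (Adam8) fell, with a median change of 0.75. With Mmp9, Mmp10 and Adamts4, the risers included Mmp13 (a collagenase) and Adam12 (a membrane metalloprotease). Mmp13 was at 0.09 and 32.6 CPM in line 1, against 0.71 and 14.3 CPM in line 2, and Adam12 at 11.4 and 355 CPM in line 1 and 60.1 and 469 CPM in line 2. Of 17 integrin subunits, 5 rose and 1 fell. Itgb3, a chain of vitronectin receptors, was at 8.00 and 221 CPM in line 1 and 23.2 and 350 CPM in line 2. Itga5, the fibronectin receptor chain, was at 43.5 and 621 CPM in line 1, against 192 and 1171 CPM in line 2, with a mean change of 3.20 ± 0.44 (SE, adjusted p = 0.0014). Itgb1 and Itga7 also rose, by 1.30 and 1.23 on average. Itga6, a laminin receptor chain of basal epithelium, fell from 210 to 54.1 CPM in line 1 and from 193 to 29.5 CPM in line 2.

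Of 26 mesenchymal and contractile genes, 7 rose and 0 fell, with medians of 1.29 in line 1 and 0.50 in line 2. They were Cdh2 (N-cadherin), Zyx and Pdlim7 (adhesion and stress fibre proteins), Actn1 and Flna (actin crosslinkers), Tpm1 (tropomyosin) and Cd44 (a hyaluronan receptor). Pdlim7 was at 76.7 and 264 CPM in line 1 and 92.9 and 249 CPM in line 2, and Actn1 changed by 1.37 and 1.39. Cdh2 was at 0.82 and 15.9 CPM in line 1 and 137 and 263 CPM in line 2, so the treated level of line 1 stayed below the untreated level of line 2. Vim was not called, with 198 and 1424 CPM in line 1 and 4188 and 3986 CPM in line 2.

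**Figure D4:**
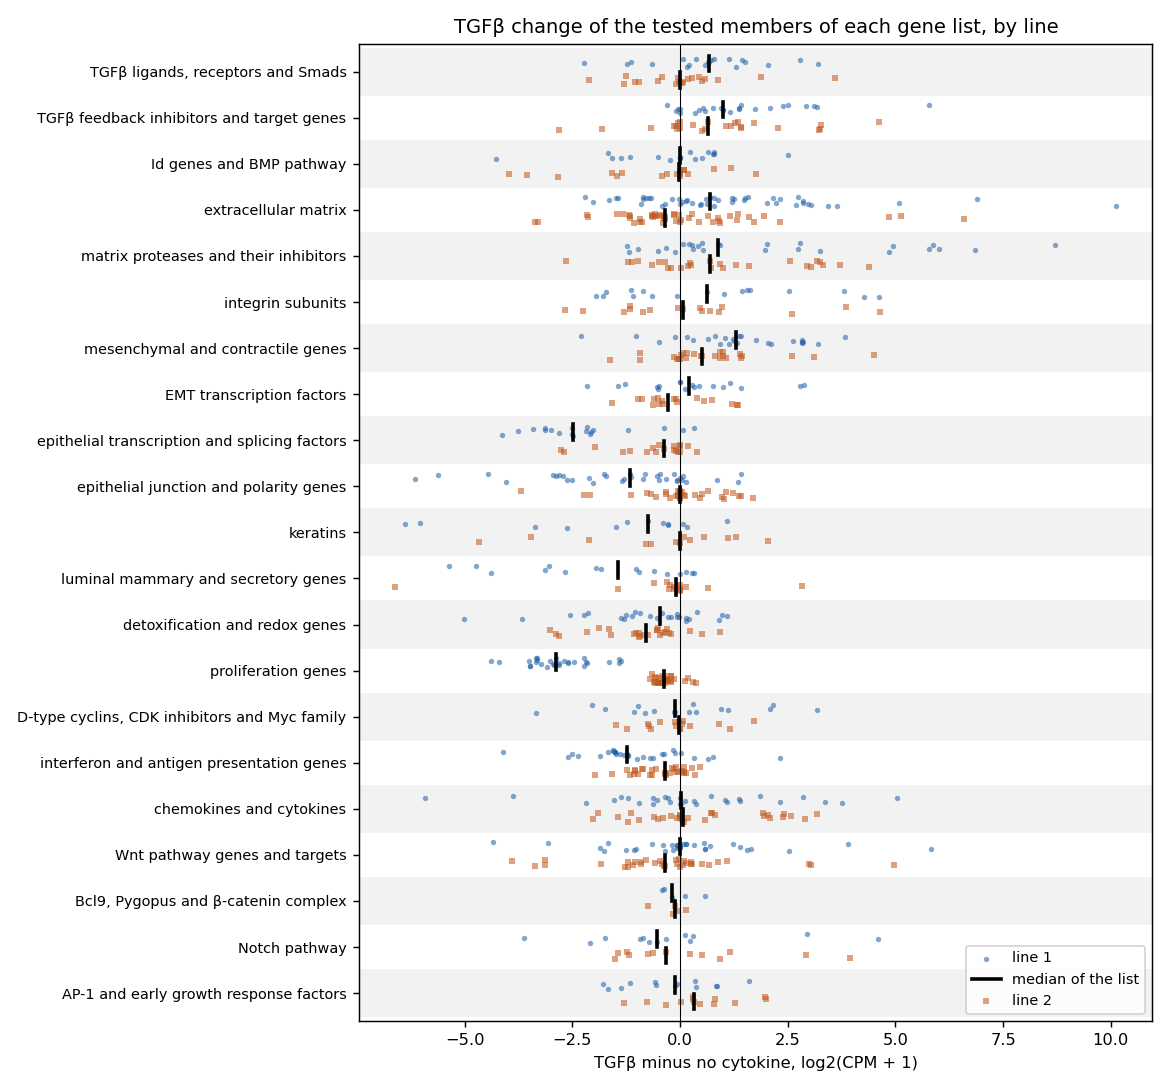
TGFβ change in log2(CPM + 1) of the tested members of the 21 pathway lists, 1 point per gene, line 1 as blue circles and line 2 as orange squares, with the median of each list and line as a black bar. The proliferation genes had a median of -2.88 in line 1 and -0.36 in line 2, while the feedback inhibitors and target genes have positive medians in both lines.

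The EMT transcription factors did not move as a group, with 2 of 18 rising and 3 falling. Snai1 was at 74.0 and 100 CPM in line 1, against 69.3 and 64.5 CPM in line 2, and Snai2 was at 0.46 and 0.59 CPM in line 1 and 10.7 and 9.51 CPM in line 2. Zeb1 was at 11.1 and 87.3 CPM in line 1 and 205 and 144 CPM in line 2, and Zeb2 at 1.46 and 15.9 CPM in line 1, against 29.1 and 49.4 CPM in line 2. None of these 4 factors was called for the mean change (adjusted p of 0.13 or more), and for Zeb1 the difference between the lines had an adjusted p of 0.12. Sox4 (1.38 ± 0.31, SE) and Tead2 (1.16 ± 0.19) rose, and Foxc1 (-1.50 ± 0.18), Twist2 (-1.52 ± 0.44) and Sox9 (-1.12 ± 0.24) fell.

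Among 19 epithelial transcription and splicing factors, 0 rose and 2 fell by limma, Ehf (an Ets factor) and Klf4, and 7 fell by edgeR. Ehf was at 24.6 and 1.93 CPM in line 1 and 5.82 and 0 CPM in line 2, and Klf4 at 239 and 41.2 CPM in line 1 and 25.9 and 5.86 CPM in line 2. In line 1, 16 of the 19 were lower by at least 1, against 12.5% of all genes, with a median of -2.49. In line 2, 10 of the 19 were under 1 CPM in both libraries, which leaves little room for a lower value. Trp63 was lower in both lines (27.2 and 1.64 CPM, 180 and 26.98 CPM) and narrowly missed the threshold (adjusted p = 0.055).

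The 34 junction and polarity genes had the same layout, with 18 lower by at least 1 in line 1 and 4 in line 2 (6.16% of all genes), and 15 under 1 CPM in both libraries of line 2. For the mean of both lines 1 rose and 2 fell by limma, and 1 rose and 8 fell by edgeR. Cdh1 was at 606 and 148 CPM in line 1, against 0.52 and 0.04 CPM in line 2, the last of these below 3 reads. Its mean change of -1.29 ± 1.23 (SE) was not called (adjusted p = 0.54). Epcam was at 390 and 117 CPM in line 1 and 0.07 CPM in both libraries of line 2. Among desmosomal genes Ppl and Pkp3 (plakophilin 3) fell and Pkp2 rose. Pkp3 was at 302 and 48.2 CPM in line 1 and 9.14 and 3.62 CPM in line 2, and Pkp2 at 28.7 and 74.6 CPM in line 1, against 33.6 and 70.9 CPM in line 2. Of 13 keratins, Krt6a and Krt14 fell. Krt14, a basal keratin, was at 3491 and 567 CPM in line 1 and 356 and 31.7 CPM in line 2, a mean change of -3.03 ± 0.52 (SE, adjusted p = 0.0051). Among the simple keratins, Krt7 and Krt8 of line 1 differed by less than 1 on the log2 scale, with Krt8 at 1256 and 748 CPM and Krt7 at 1434 and 1189 CPM. In line 2, Krt8 was at 0.34 and 4.54 CPM.

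Of the 21 pathway lists, the proliferation genes had the largest median difference between the lines (-2.47). In line 1, all 30 were lower with TGFβ, with changes of -4.40 to -1.36 on the log2 scale, where 12.5% of all genes were lower by at least 1. In line 2 their changes lay between -0.70 and 0.37, and 0 of 30 were lower by at least 1. There 26 of the 30 were lower by some amount, against 7406 of 13270 over all genes, with a median of -0.36 against -0.05. Mki67, the antigen used to mark cycling cells, was at 250 and 10.9 CPM in line 1 and 269 and 202 CPM in line 2. Ccna2 (cyclin A2) was at 201 and 17.1 CPM in line 1, against 321 and 202 CPM in line 2, and Mcm5, of the replicative helicase, at 300 and 29.4 CPM in line 1 and 385 and 255 CPM in line 2. In these 3 genes the treated level of line 1 lay below the other 3 libraries. For the mean of both lines, 5 of the 30 fell by limma (Ccna2, Ccnb2, Ccnb1, Plk1 and Cdc20, all cell cycle regulators) and 0 by edgeR. The difference between the lines was called for 1 of 30, E2f2 (adjusted p = 0.032), and the other 29 had adjusted p of 0.074 to 0.51.

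Among the inhibitors of cyclin-dependent kinases, Cdkn1a rose in both lines (133 and 571 CPM in line 1, 82.7 and 273 CPM in line 2). Cdkn2b, which codes for p15 and is a known TGFβ target, went from 33.9 to 312 CPM in line 1, and neither library of line 2 had a read for it. The neighbouring Cdkn2a was at 27.9 and 127 CPM in line 1 and also had no read in line 2, where 3 reads would be 0.112 and 0.107 CPM. Mtap, next to Cdkn2a on chromosome 4 and named after its values were seen, was at 153 and 331 CPM in line 1 and 288 and 501 CPM in line 2. The line difference of Cdkn2b, 3.17, is therefore the change of line 1 alone. Whether the state of Cdkn2a and Cdkn2b bears on the proliferation genes was not tested. Cdkn2c, Cdkn2d and Cdkn1b fell in both lines. Cdkn2c was at 71.3 and 6.10 CPM in line 1, against 116 and 40.7 CPM in line 2. Myc and Ccnd1 were not called, with mean changes of 0.37 and 0.22.

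Secreted signals changed in both directions. Of 30 chemokines and cytokines, 5 rose and 1 fell. Vegfc, a lymphatic growth factor, was at 4.02 and 67.2 CPM in line 1 and 10.59 and 105 CPM in line 2, a mean change of 3.48 ± 0.33 (SE, adjusted p = 0.00021). Pdgfa was at 27.5 and 204 CPM in line 1 and 23.0 and 143 CPM in line 2, and Pdgfb at 48.2 and 503 CPM in line 1, against 10.7 and 61.2 CPM in line 2. Both code for platelet-derived growth factor chains. Hbegf (an EGF receptor ligand) and Lif (a cytokine of the IL-6 family) rose by 1.91 and 1.39, and Cxcl5, which attracts neutrophils, fell from 400 to 5.68 CPM in line 1 and from 219 to 80.9 CPM in line 2.

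Of 31 interferon and antigen presentation genes, 0 rose and 5 fell (3.07% of all genes), with medians of -1.22 in line 1 and -0.34 in line 2 (-0.14 and -0.05 over all genes). Among them, Irf7, a transcription factor of the interferon response, fell from 42.4 to 6.14 CPM in line 1 and from 3.62 to 0.53 CPM in line 2, a mean change of -2.10 ± 0.41 (SE, adjusted p = 0.009), and Gbp2, Mx1 and Oas2 also fell. Oas2 rested on line 1, where it was at 22.7 and 0.38 CPM, against 0.07 and 0 CPM in line 2. Among 26 detoxification and redox genes, 0 rose and 5 fell by limma (3 by edgeR), with medians of -0.48 and -0.79. Aldh3a1, an aldehyde dehydrogenase of surface epithelia, fell from 983 to 76.9 CPM in line 1 and from 2117 to 476 CPM in line 2. The others were Akr1c18, Gstm1, Ugt1a7c and Akr1c14. Akr1c14 rested on line 2, with 24.4 and 2.13 CPM against 0.46 and 0 CPM in line 1. The first exons alone tell Ugt1a7c from other Ugt1a transcripts. Of 16 luminal and secretory genes 1 fell by limma, Scara5, (3.07% of all genes), and 3 by edgeR (386 of 13270 over all genes). Slpi, a secreted protease inhibitor, was at 1730 and 41.0 CPM in line 1 and 420 and 341 CPM in line 2, and was not called (adjusted p = 0.12).

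In the Wnt pathway, 4 of 35 genes rose and 4 fell (2.34% and 3.07% of all genes). Wnt11, a ligand of non-canonical signalling, was at 0 and 55.7 CPM in line 1 and 0.04 and 7.24 CPM in line 2. Lgr6, a receptor for R-spondins, was at 16.5 and 99.1 CPM in line 1, against 1.64 and 81.5 CPM in line 2. Wnt4 fell from 37.7 to 3.62 CPM in line 1 and from 39.9 to 2.95 CPM in line 2. Wnt9a and Fzd2 also rose, and Notum, Wnt10a and Fzd7 also fell. Axin2, the usual reporter gene of β-catenin activity, was at 0.32 and 0.25 CPM in line 1 and 1.45 and 0.32 CPM in line 2, and was not called. None of Bcl9, Bcl9l, Pygo1, Pygo2 and Ctnnb1 was called, with mean changes of -0.58 to 0.23. Bcl9 was at 34.0 and 50.9 CPM in line 1 and 66.1 and 61.2 CPM in line 2, and Bcl9l at 172 and 128 CPM in line 1, against 323 and 193 CPM in line 2.

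Of 13 Notch pathway genes, Jag1 and Notch4 rose. Jag1, a Notch ligand, was at 18.98 and 479 CPM in line 1 and 15.8 and 256 CPM in line 2, with a mean change of 4.26 ± 0.36 (SE, adjusted p = 8e-05). The Notch4 receptor was at 0.82 and 13.0 CPM in line 1 and 1.01 and 14.2 CPM in line 2. None of 13 AP-1 and early growth response genes was called by limma or by edgeR.

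A test of the difference between the lines took the spread of responses from the other 3 genotypes, since each line has 1 library per treatment. That the ΔHD1/fl lines share this spread was assumed and cannot be checked here, so its p-values depend on that. The test called 122 genes (0.919% of 13270), 75 with the larger value in line 1 (0.565%) and 47 with the larger value in line 2 (0.354%). This count depended on the fit. It was 5 with edgeR, 6 without the Wnt3a libraries, 46 with a pseudocount of 0.1 and 210 with no filter on low values. It was 19 without line 3 of the genotype ΔHD2/-, whose TGFβ changes had a correlation of 0.94 across genes with those of its line 2.

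The 6 genes with the largest called differences in each direction are given here. Cxcl12, a chemokine of stromal cells, was at 1.23 and 71.9 CPM in line 1, against 21.3 and 4.54 CPM in line 2, so that the lines moved in opposite directions (difference 7.04 ± 1.05, SE, adjusted p = 0.018). Pappa2, a protease that cleaves IGF-binding proteins, was at 0.41 and 8.45 CPM in line 1 and 20.03 and 3.05 CPM in line 2 (difference 5.12 ± 0.28, adjusted p = 3.2e-05). Scube3, a secreted glycoprotein, was at 0.18 and 120 CPM in line 1 and 1.42 and 1.14 CPM in line 2, and Cacna1g, a T-type calcium channel, at 0.23 and 113 CPM in line 1, against 1.60 and 2.80 CPM in line 2. Both were at 2.80 CPM or less in the libraries of line 2. Sdc3 (a syndecan) was at 14.1 and 684 CPM in line 1 and 382 and 545 CPM in line 2, and Ttc28 at 1.23 and 29.6 CPM in line 1 and 69.3 and 41.2 CPM in line 2. For Sdc3 and Ttc28 the lines lay closer together with TGFβ than without.

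The other 6 were lower with TGFβ in line 1 and had at most 0.19 CPM in either library of line 2, so that the difference is the change of line 1 alone. Trpv6, an epithelial calcium channel, was at 128 and 1.68 CPM in line 1, and Hp (haptoglobin) at 48.2 and 0.13 CPM. Kank4 was at 93.5 and 2.10 CPM, Smim5 at 22.6 and 0.25 CPM and Tmem125 at 26.7 and 0.50 CPM in line 1. Oas2, an interferon-induced synthetase, had a difference of -4.0 ± 0.25 (SE, adjusted p = 5.5e-05). Of the 12 genes, 0 were called by edgeR (lowest adjusted p = 0.064), 3 without the Wnt3a libraries (Cxcl12, Pappa2 and Oas2) and 4 with a pseudocount of 0.1 (Cxcl12, Scube3, Pappa2 and Ttc28). Without line 3 of ΔHD2/-, 5 were called (Pappa2, Ttc28, Trpv6, Hp and Oas2), and Cxcl12 was not.

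**Figure D5:**
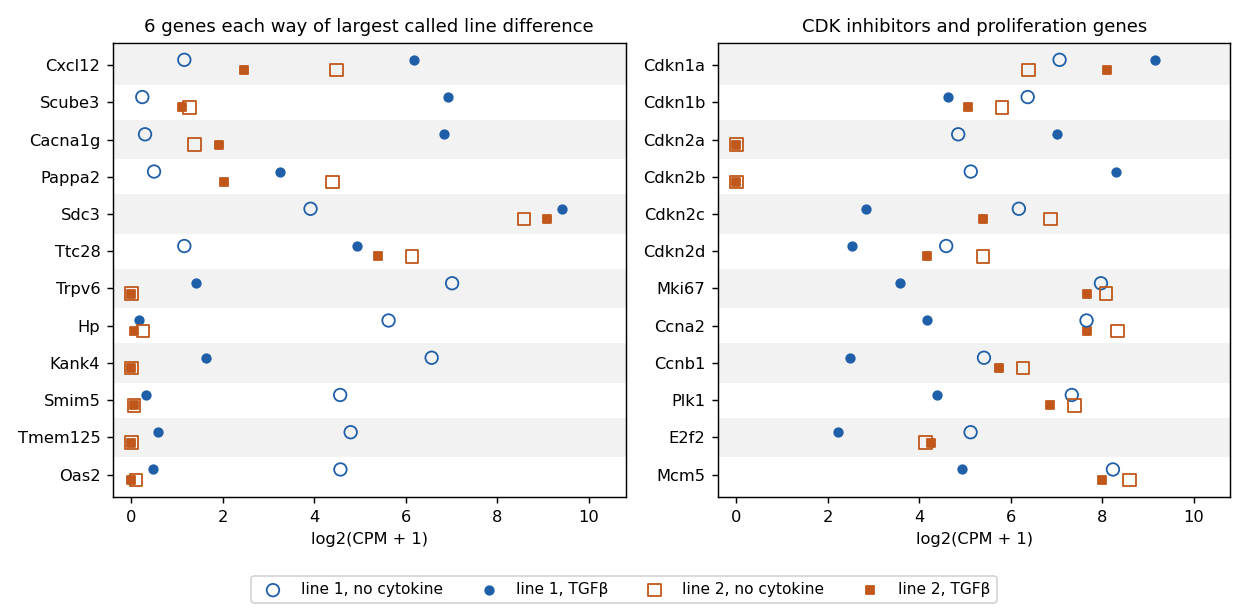
Levels as log2(CPM + 1) of the 6 genes in each direction with the largest called difference in TGFβ change between the lines (left) and of CDK inhibitors and proliferation genes (right), line 1 as circles and line 2 as squares, open without cytokine and filled with TGFβ. Cdkn2a and Cdkn2b lie at 0 in both libraries of line 2, and the filled circles of the proliferation genes lie far left of the other 3 symbols.

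Against the recombined ΔHD1/- lines, the response to TGFβ differed for 3 of 13270 genes (0.0226%), all with the more positive value in ΔHD1/fl. Mc5r, a melanocortin receptor, was at 0.37 and 3.95 CPM in line 1, against 0 and 2.20 CPM in line 2, and had at most 0.03 CPM in the 4 libraries of ΔHD1/-, so that its difference comes from ΔHD1/fl alone. Atg9b, of autophagosome formation, changed by 0.96 and 1.61 in the ΔHD1/fl lines, and went from 217 to 107 CPM and from 185 to 129 CPM in ΔHD1/-. Adm (adrenomedullin) had no read in the 4 ΔHD1/fl libraries and was at 4.32 and 0.04 CPM and 3.03 and 0.25 CPM in the lines of ΔHD1/-, untreated and with TGFβ, so that its difference comes from ΔHD1/- alone. Among all untreated and TGFβ libraries, Mc5r reached 1 CPM only in ΔHD1/fl with TGFβ, and Adm only in untreated ΔHD1/-. Neither call is a contrast of responses present in both genotypes. At an unadjusted p under 0.05 with a fold of at least 1.5, 880 genes differed, and without line 1 or line 2 of ΔHD1/fl the count of called genes was 22 or 297. Of the 3 genes, Atg9b alone was called by edgeR, Adm alone with median-of-ratios scaling or with no block, and 0 with a pseudocount of 0.1 or without line 3 of ΔHD2/-.

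Against ΔHD2/fl, whose 2 lines both had Cdh1 above 1000 CPM untreated, 23 genes differed (0.173%), 19 with the larger value in ΔHD1/fl (0.143%) and 4 with the smaller (0.0301%). Fbxo32 (atrogin-1, a ubiquitin ligase component) rose in both ΔHD1/fl lines, from 29.7 to 390 CPM and from 12.5 to 159 CPM, and went from 107 to 71.4 CPM and from 81.7 to 88.3 CPM in ΔHD2/fl, a difference of 3.86 ± 0.48 (SE, adjusted p = 0.0062). In ΔHD1/-, Fbxo32 also went up, from 10.2 to 54.2 CPM in line 1 and from 31.1 to 169 CPM in line 2. Its response in ΔHD1/fl minus that in ΔHD1/- was not called (1.27, adjusted p = 0.58, limma). In the comparison with ΔHD2/fl, Fbxo32 was the one gene that edgeR called. The count was 1 with a pseudocount of 0.1, 9 without line 3 of ΔHD2/- and 66 or 70 without line 1 or line 2 of ΔHD1/fl. Chst1 fell in ΔHD1/fl and was at 3.88 CPM or less in ΔHD2/fl (difference -3.03, adjusted p = 0.049). It had no read in line 2 of ΔHD2/fl, where a fall could not be seen. In ΔHD1/- it went from 27.9 to 0.79 CPM in line 1 and from 293 to 20.4 CPM in line 2. The difference for Chst1 was not called with median-of-ratios scaling (adjusted p = 0.052, limma), with no filter (0.055) or without line 3 of ΔHD2/-. For Sostdc1, Scara3 and 1700016K19Rik the ΔHD1/fl libraries held at most 0.05 CPM, so that the difference came from changes in ΔHD2/fl. Among all untreated and TGFβ libraries, Scara3 and 1700016K19Rik reached 1 CPM only in ΔHD2/fl with TGFβ. Their calls therefore say nothing of the response of ΔHD1/fl. Cdh15 (M-cadherin) was at 0.23 and 0.93 CPM in line 1 and 0.97 and 3.76 CPM in line 2, whereas the lines of ΔHD2/fl held 9.53 and 0.04 CPM and 9.03 and 0.07 CPM.

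Over all genes, the change of line 1 had its highest correlation with line 2 of ΔHD2/fl (0.69) and its lowest with line 1 of ΔHD1/- (0.41), and the change of line 2 its highest with line 2 of ΔHD1/- (0.69) and its lowest with line 2 of ΔHD2/- (0.35). Each of these pairs shares no library, the points are 13270 genes, and the values are descriptions with no test. Line 2 of ΔHD1/- was also low in Cdh1 (0.24 CPM untreated), and Cdkn2a and Cdkn2b had no read in either line of ΔHD1/-. Line 1 of ΔHD1/- had Cdh1 at 817 CPM untreated and 4.29 CPM with TGFβ, and its correlation with line 2 of ΔHD1/fl was 0.62. Mki67 was at 186 and 173 CPM in line 1 of ΔHD1/- and at 330 and 71.4 CPM in line 2. Whether these levels bear on the correlations was not tested.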

How the data were processed

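RNA was sequenced from 27 libraries of 9 cell lines, single-end from poly(A) RNA with a strand-specific kit. The authors aligned reads with STAR to mm10, kept unique hits, counted read starts in RefSeq exons with QuasR and deposited values as CPM (counts scaled to the library total). Whether the counting used strand was not given in the sources used here. Unique hits can under-count near copies such as Krt6a and Krt6b. All values in the 27 libraries were whole multiples of 1 read (tolerance 0.01), so reads were recovered, at 21.86 to 33.69 M reads per library. Of 24454 gene IDs, 24374 matched a symbol.

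From there, log2(CPM + 1) was fitted for 13270 genes that reached 1 CPM in 2 or more libraries, with limma 3.58.1 (R 4.3.3, eBayes with trend and robust) over all 27 libraries, with the cell line as a fixed block. Replicate numbers name lines plated together for all treatments, and deviations from the group means of the same ΔHD1/fl line had a correlation of 0.689 between untreated and TGFβ libraries. Calls needed a p, adjusted by the Benjamini-Hochberg method, not above 0.05 and a log2 change of 1 or more. For the line difference, each ΔHD1/fl line had its own cytokine effects. Alternatives were edgeR 4.0.16 on recovered reads, another pseudocount, filter or scaling, fewer libraries and no block. The fits were tested on simulated counts with a common dispersion and implanted changes of a set size. Real genes differ in both, so the simulation does not vouch for the calls made here.

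Named genes were the 12 that rose and the 12 that fell most among genes called and changed by at least 1 in both lines with a mean of at least 1 CPM, the 6 largest called line differences each way, up to 3 each way per comparison of genotypes, called members of pathway lists, and fixed genes such as Cdh1, Vim and Fn1. Some genes that this rule selects, 1 of the 12 risers among them, are counted but not reported here. Other list members given with values (Smad2 to Smad4, Col1a1, Col1a2, Col3a1, Col5a1, Col5a2, Col12a1, Pdgfra, Prrx1, Esrp1, Plin4, Thy1, Lum, Fap, E2f2, Cdkn2b, Mki67, Mcm5, Slpi, Trp63, Krt5, Krt6b, Krt7, Krt8, Krt15, Krt17, Dsg3, Myc, Ccnd1 and Cdkn2a) were chosen after their values were seen. Members and lists were chosen with earlier results of these data known. The labels describe replicates as lines from different mice. Lines 2 and 3 of ΔHD2/- were closer than other pairs (chi-square per gene of 13.5 to 36.0 against 135.7 to 681.7), and whether they are separate tumours was not tested. Intervals from counting were not used, and the limit of 3 reads covers counting error only.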

Additional observations from a re-analysis of the deposited data

Results flagged for a closer look

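The following genes were set apart because a test found their TGFβ change to differ between the ΔHD1/fl lines or between genotypes. The value is the difference of the changes on the log2(CPM + 1) scale.

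For line 1 minus line 2, the differences were 7.04 for Cxcl12, 6.86 for Scube3, 5.98 for Cacna1g, 5.12 for Pappa2, 4.99 for Sdc3 and 4.51 for Ttc28. They were -5.59 for Trpv6, -5.25 for Hp, -4.93 for Kank4, -4.24 for Smim5, -4.20 for Tmem125 and -4.0 for Oas2. These 6 genes had at most 0.19 CPM in either library of line 2, where a fall could not be seen, so their values describe line 1 and not a contrast of responses. With the filter on the compared libraries, 8 of the 12 genes were tested and 7 were called. The lines also differed in their epithelial and fibroblast markers before treatment, and the part of that difference in these values was not tested.

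For ΔHD1/fl minus ΔHD1/-, the differences were 2.06 for Atg9b, 2.02 for Adm and 1.79 for Mc5r. Adm had no read in the ΔHD1/fl libraries, so its value describes ΔHD1/- alone, and Mc5r had at most 0.03 CPM in the ΔHD1/- libraries, so its value describes ΔHD1/fl alone. For ΔHD1/fl minus ΔHD2/fl, they were 4.47 for Sostdc1, 4.25 for Cdh15, 3.86 for Fbxo32, -3.03 for Chst1, -2.56 for Scara3 and -1.77 for 1700016K19Rik. Sostdc1, Scara3 and 1700016K19Rik had at most 0.05 CPM in the ΔHD1/fl libraries, so their values describe ΔHD2/fl alone. Chst1 was at 3.88 and 0.64 CPM in line 1 of ΔHD2/fl and had no read in line 2, where a fall could not be seen. In both lines of ΔHD1/-, Fbxo32 was higher and Chst1 lower with TGFβ, as in ΔHD1/fl.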

How the results depend on the processing

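Counts of called genes depended on the fit, and the cause was not tested. For the TGFβ response, 719 genes became 1386 with no fold limit, 2503 at an unadjusted p with a 1.5-fold limit, 0 with the compared groups only, 28 with no replicate block, 480 without line 3 of ΔHD2/-, and 325 to 1482 without 1 ΔHD1/fl line (325 without line 1, 1482 without line 2). For the line difference, 122 became 1945 at an unadjusted p, 5 with edgeR, 70 with a filter on the compared libraries, 210 with no filter, 46 with a pseudocount of 0.1, 6 without the Wnt3a libraries and 19 without line 3 of ΔHD2/-, a choice made after the data were seen. Against ΔHD1/-, 3 became 880 at an unadjusted p, 0 with the compared groups only (311 at an unadjusted p under 0.05), 5 with edgeR, 1 with median-of-ratios scaling, 6 with no filter, 1 with no replicate block, 0 with a pseudocount of 0.1 (1094 unadjusted) and 0 to 297 without 1 line. Against ΔHD2/fl, 23 became 660, 0 with the compared groups only (585 unadjusted), 1 with edgeR, 2 with no replicate block, 1 with a pseudocount of 0.1, and 9 to 70 without 1 line. With a pseudocount of 0.1 the genes higher in both lines became 452, those lower in both 588, and the opposite changes 102 and 67. With a limit of 1.5 the shared sets held 130 and 144 genes, the sets of line 1 alone 182 higher and 467 lower, those of line 2 alone 39 higher and 130 lower, and the opposite sets 8 and 1. Among the named genes, only some that were not called changed direction. Others kept their direction for the TGFβ response with weaker support: 15 with edgeR, 26 without line 3 of ΔHD2/- and 88 with no replicate block. Without 1 ΔHD1/fl line the mean changes ranged from -0.11 to 0.57 for Bcl9, -0.15 to 0.90 for Myc, -0.03 to 0.66 for Smad3, -0.10 to 0.43 for Snai1, -0.15 to 0.12 for Snai2, -0.07 to 2.84 for Vim and -0.51 to 2.87 for Zeb1. Snai2 was also at 0.19 with edgeR, 0.05 with median-of-ratios scaling and 0.07 with a pseudocount of 0.1, and Pygo2, also not called, at 0.01 with median-of-ratios scaling. With 1 library per line and treatment, the spread within a line is not known, and genes under 3 reads (0.107 to 0.137 CPM) cannot be followed further down.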
